A study of Homo sapiens with 6 samples.

Results

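Chromatin regions at which BRG1 was called in both LNCaP and MR49F prostate cancer cells, and SMARCC2 in neither, were described here. They were selected on the authors' 4 peak lists: peaks with 1 bp or more in common were merged to regions on chromosomes 1 to 22 and X, and a region was kept when it held a peak of both BRG1 lists and no peak of either SMARCC2 list. Of 65315 joined regions, 23032 carried BRG1 in both lines, and 1625 of these lacked SMARCC2, or 7.06% (Wilson 95% interval 6.73 to 7.39). This share was set by the rule and is a description. SMARCC2 was called in both lines at 14863 of the shared BRG1 regions, in MR49F alone at 5665 and in LNCaP alone at 879.

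LNCaP is an androgen-responsive human prostate adenocarcinoma line, grown here without enzalutamide as far as the labels say. MR49F is an enzalutamide-resistant line derived from LNCaP, and it was kept in 10 µM enzalutamide, an antiandrogen that blocks the androgen receptor, so that line and drug exposure cannot be told apart. Cells of both lines were fixed with 2 mM disuccinimidyl glutarate for 45 min and 1% formaldehyde for 10 min before precipitation with 4 µg of antibody. Each line had 1 library per antibody and 1 input, and the inputs were not analysed here. Without replicates no difference between the lines could be tested, and Wilson intervals cover counting error over regions only. On chromosomes 1 to 22 and X the BRG1 lists held 36101 peaks in LNCaP and 44229 in MR49F, and the SMARCC2 lists held 25639 and 47526. Every list ended near a −log10 q-value of 2, so a missing SMARCC2 peak means that this threshold was not reached and does not show that the protein was absent.

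BRG1, encoded by SMARCA4, is an ATPase that drives the SWI/SNF nucleosome remodelling complexes. These complexes exist as canonical BAF, PBAF and non-canonical BAF, which share an ATPase and differ in their other subunits. SMARCC2, also called BAF170, is a scaffold subunit of canonical BAF and PBAF, whereas non-canonical BAF is built on the related subunit SMARCC1 and contains BRD9. Non-canonical BAF is known from other cells for binding at promoters and at CTCF sites. Neither BRD9 nor SMARCC1 was measured, so the complexes present at these regions were not tested.

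Start sites of 243 promoter windows of the RefSeq promoter table (GRCh38.p14, the build hg38) lay inside 190 of the regions. Each window runs from 250 bases before to 50 bases after an annotated start. A window can reach beyond its region, so a motif match can lie outside the region. Printed are windows of the 6 strongest regions over a start and 2 others, the strongest whose window held an RFX or a CRE motif. They are examples picked for strength or for a motif and do not stand for all 243 windows. Capitals mark every match, on either strand, to the 7 motifs found in these windows. The motifs of CTCF (2 cores, counted together), NRF1, steroid receptors and RFX are long and are given by name only. The ETS motif was searched as CCGGAAG, and the binding motif of YY1 was searched as AAGATGGCG. ZNF143 was represented by its shorter form ACTACAA, and the cyclic AMP response element or CRE was searched as TGACGTCA. NF-Y was searched by its box CCAAT, which is short and frequent in promoters. E-box motifs were searched in the form CACGTG, bound by MYC among others, and AP-1 motifs were searched in the form TGANTCA. Forkhead factors were represented by their common form TGTTTAC, HOX13 factors were searched as TTTTATGG, and the TATA box was searched as TATAAA. The GC-box of SP and KLF factors, which was searched as GGGCGG, was counted but is not capitalised. Matches to different motifs may overlap and were counted for each motif.

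The LOC101928447 window lies at chr17:76121504-76121803 on the minus strand, upstream of a gene that is not protein-coding, and its capitals are a match to a CTCF core. The LOC102724467 window, also of a gene that is not protein-coding, lies at chr16:87779099-87779398 on the minus strand and holds no match. The window of SMTN, which encodes the smooth muscle protein smoothelin, lies at chr22:31081068-31081367 on the plus strand with 3 NF-Y matches. That of NFIX, a nuclear factor I transcription factor gene, lies at chr19:12995225-12995524 on the plus strand with an E-box. CPTP, a ceramide-1-phosphate transfer protein gene, starts back to back with INTS11, the gene of the Integrator endonuclease. Its window at chr1:1324552-1324851 on the plus strand holds an ETS, an NRF1 and 2 NF-Y matches. The window of NAPSA, which encodes the protease napsin A, lies at chr19:50369253-50369552 on the minus strand with an E-box and an NF-Y match. That of TCTN3, a gene of the ciliary transition zone, lies at chr10:95693878-95694177 on the minus strand and holds an RFX match with 3 NF-Y matches. Its RFX match and the first 2 NF-Y matches as printed lie outside the BRG1 region, which ends at position 95694002. The window of ELP5, a subunit of the Elongator complex, lies at chr17:7252176-7252475 on the plus strand with a CRE. This CRE also lies outside the BRG1 region, which starts at position 7252228.
LOC101928447: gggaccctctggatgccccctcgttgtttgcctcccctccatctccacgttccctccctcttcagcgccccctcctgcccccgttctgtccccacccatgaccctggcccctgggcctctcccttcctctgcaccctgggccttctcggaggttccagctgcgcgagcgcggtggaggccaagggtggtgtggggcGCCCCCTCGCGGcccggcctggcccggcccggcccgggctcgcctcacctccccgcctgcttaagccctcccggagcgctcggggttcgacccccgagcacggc
LOC102724467: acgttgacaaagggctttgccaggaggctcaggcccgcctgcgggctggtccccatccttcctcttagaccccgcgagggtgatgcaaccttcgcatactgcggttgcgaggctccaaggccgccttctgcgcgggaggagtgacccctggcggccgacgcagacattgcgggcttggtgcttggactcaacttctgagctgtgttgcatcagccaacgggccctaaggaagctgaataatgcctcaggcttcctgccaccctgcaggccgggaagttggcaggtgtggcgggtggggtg
SMTN: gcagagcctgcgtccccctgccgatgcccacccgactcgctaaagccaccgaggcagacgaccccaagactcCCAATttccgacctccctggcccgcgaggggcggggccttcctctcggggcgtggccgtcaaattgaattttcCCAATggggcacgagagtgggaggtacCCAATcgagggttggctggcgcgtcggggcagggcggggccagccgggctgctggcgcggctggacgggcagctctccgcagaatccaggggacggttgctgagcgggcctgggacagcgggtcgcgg
NFIX: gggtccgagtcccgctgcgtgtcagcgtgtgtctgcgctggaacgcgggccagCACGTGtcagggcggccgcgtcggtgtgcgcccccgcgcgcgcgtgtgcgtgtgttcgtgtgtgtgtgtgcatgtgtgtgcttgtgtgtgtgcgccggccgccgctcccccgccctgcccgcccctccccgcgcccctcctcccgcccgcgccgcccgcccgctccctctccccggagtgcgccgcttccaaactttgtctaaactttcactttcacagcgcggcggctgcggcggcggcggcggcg
CPTP: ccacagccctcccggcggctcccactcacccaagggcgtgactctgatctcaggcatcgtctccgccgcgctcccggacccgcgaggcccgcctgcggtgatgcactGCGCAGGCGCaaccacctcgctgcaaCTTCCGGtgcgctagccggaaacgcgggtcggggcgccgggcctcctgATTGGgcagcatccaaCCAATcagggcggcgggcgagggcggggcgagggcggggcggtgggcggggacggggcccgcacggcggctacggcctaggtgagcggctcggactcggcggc
NAPSA: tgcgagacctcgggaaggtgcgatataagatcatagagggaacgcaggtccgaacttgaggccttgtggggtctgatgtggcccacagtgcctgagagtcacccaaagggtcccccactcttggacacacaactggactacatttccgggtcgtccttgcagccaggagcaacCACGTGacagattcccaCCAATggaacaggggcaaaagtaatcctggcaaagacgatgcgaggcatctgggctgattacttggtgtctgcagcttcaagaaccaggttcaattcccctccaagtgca
TCTN3: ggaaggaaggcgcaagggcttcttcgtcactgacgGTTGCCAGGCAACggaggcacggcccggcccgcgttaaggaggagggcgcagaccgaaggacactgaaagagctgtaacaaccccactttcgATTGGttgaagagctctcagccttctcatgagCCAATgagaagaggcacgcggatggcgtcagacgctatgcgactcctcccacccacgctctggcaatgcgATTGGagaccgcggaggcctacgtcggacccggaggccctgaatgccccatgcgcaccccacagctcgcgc
ELP5: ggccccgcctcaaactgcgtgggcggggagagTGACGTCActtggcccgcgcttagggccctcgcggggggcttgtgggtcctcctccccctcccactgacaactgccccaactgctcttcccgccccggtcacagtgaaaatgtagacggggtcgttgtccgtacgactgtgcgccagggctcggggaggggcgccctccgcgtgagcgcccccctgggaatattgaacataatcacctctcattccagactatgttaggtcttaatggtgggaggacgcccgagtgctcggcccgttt

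Among the 243 windows the median GC content was 64.3% (quartiles 59.7 to 71.5), against 69.0% (61.7 to 74.7) in 4956 windows of regions with all 4 peaks and 58.7% (47.0 to 68.0) in all 34789 windows. The GC-box of SP and KLF factors was present in 68.3% (62.2 to 73.8) of the windows, in 73.2% (71.9 to 74.4) of those with all 4 peaks and in 44.9% of all windows. Both values lay between those of promoters in general and of promoters that also carried SMARCC2, although the GC-box interval held the 73.2%. NF-Y matches were found in 35.0% (29.3 to 41.2) of the windows, against 28.4% (27.1 to 29.6) with all 4 peaks and 34.6% of all windows. NRF1 matches were found in 5.76% (3.46 to 9.44), against 9.06% (8.29 to 9.89) and 5.75%. For both motifs the interval held the share over all windows, and for NRF1 it also held the share with all 4 peaks. Windows of neighbouring starts overlap and share letters, so they are not independent of each other.

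CTCF cores were found in 8 of the 243 windows, or 3.29% (1.68 to 6.36), against 2.85% (2.42 to 3.35) in windows with all 4 peaks and 1.80% in all windows. The interval held both the share found where SMARCC2 was called and the share in all windows. A CRE was present in 11 windows, or 4.53% (2.55 to 7.92), against 2.60% (2.20 to 3.08) with all 4 peaks and 1.84% (1.71 to 1.99) in all windows, and the genes included HSP90AB1, a cytosolic chaperone, and PDE4A, a cyclic AMP phosphodiesterase. An RFX match occurred in 3 windows, or 1.24% (0.421 to 3.57), against 0.283% (0.168 to 0.474) with all 4 peaks and 0.492% (0.423 to 0.571) in all windows. RFX factors are known as regulators of cilium genes, and the 3 genes, TCTN3, DNAH7 and DNAAF19, all encode cilium proteins. For CRE and RFX the interval overlapped that of windows with all 4 peaks, and for CRE it lay above the share in all windows. The 11 CRE windows belonged to 10 regions, and 4 of them were among the 21 windows on chromosome 19 (19.05%, 7.67 to 40.0). On that chromosome a CRE was present in 6.14% of windows with all 4 peaks and 2.995% of all windows. The CRE share without chromosome 19 was not computed, so the CRE difference from all windows is not shown to hold without these 4 windows. ETS matches were found in 15.2% (11.2 to 20.3), an interval that held the 14.3% (13.3 to 15.3) of windows with all 4 peaks and lay above the 10.2% (9.88 to 10.5) of all windows. E-boxes were found in 32 windows, or 13.2% (9.49 to 18.0), against 9.18% (8.41 to 10.0) with all 4 peaks and 7.24% of all windows. A TATA box was found in 4.94% (2.85 to 8.43), against 5.29% with all 4 peaks and 11.6% of all windows. For YY1, ZNF143, AP-1, forkhead and steroid receptor motifs the interval held the share with all 4 peaks and that in all windows. A HOX13 match was found in 0 of the 243 windows, which allows a share of up to 1.56%, against 0.343% in windows with all 4 peaks and 0.819% in all windows. A match describes letters in a window and not a bound factor.

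BRG1 was called weakly at most of the regions. Strength was read from the authors' −log10 q-value and from the number of sequenced tags stacked at the summit, which was worked back from the deposited fold and p-value. In LNCaP the BRG1 −log10 q-value had a median of 5.42 (quartiles 3.91 to 7.41), with a lowest value of 2.01 and a highest of 21.7. In MR49F the median was 5.29 (3.69 to 7.43), with values from 2.05 to 23.5. The summits held a median of 24 tags in LNCaP (14 to 56) and 20 in MR49F (10 to 50), against 33 and 36 at regions with all 4 peaks. Fewer than 30 tags were found in both lines at 1228 of the 1625 regions. The regions were also narrow, with a median of 870 bp (quartiles 672 to 1140) against 1624 bp, and they covered 1.58 Mb in all. Width grows with the number of peaks joined, and a region with all 4 peaks joins at least 4.

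The weight between lines differed from that of regions with SMARCC2, but the classes are defined by the line in which SMARCC2 was called. A site that is weak in a line reaches the threshold there less often with either antibody. How much of the difference comes from this was not tested. The −log10 q-value was higher in MR49F at 49.5% (47.1 to 52.0) of the regions, against 72.8% (72.1 to 73.5) of those with all 4 peaks, 79.4% (78.3 to 80.4) of those with SMARCC2 in MR49F alone and 30.1% (27.2 to 33.3) of those with it in LNCaP alone. In tags, LNCaP was higher at 1135 of the 1625 regions and equal at 89. Background at an unenriched site was 3.22 tags in LNCaP and 2.61 in MR49F, so tags are not on a common scale between lines.

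**Figure D1:**
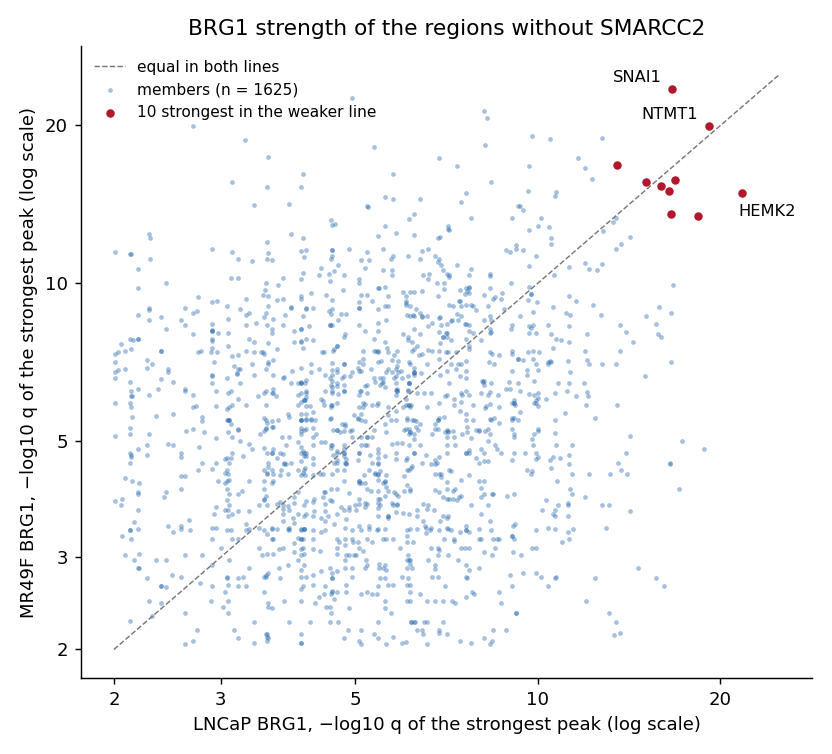
BRG1 −log10 q-value of the strongest peak in LNCaP (x axis, log scale) and MR49F (y axis, log scale) at the 1625 regions without SMARCC2, 1 point per region, with the 10 strongest in the weaker line in red. Points fill the square above the threshold of 2 on both sides of the diagonal, and 33 regions reach 10 or more in both lines.

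The share of shared BRG1 regions that lacked SMARCC2 was lower where BRG1 was stronger. The measure was the −log10 q-value of the weaker line. From 2 to 3 it was 20.9% (19.1 to 22.9, 354 of 1691 regions) and from 5 to 7 it was 7.11% (6.41 to 7.87). From 10 to 15 it was 0.789% (0.547 to 1.14, 28 of 3547). At 20 or more, 0 of 1603 regions lacked SMARCC2, which allows a share of up to 0.239%. The strongest 10% of each list gave the same picture, with 14 of 3609 LNCaP BRG1 peaks and 0 of 4426 MR49F BRG1 peaks in these regions. BRG1 and SMARCC2 values came from separate libraries, but a weak site reaches the threshold less often with either antibody, and how much of the gradient comes from the threshold was not tested.

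**Figure D2:**
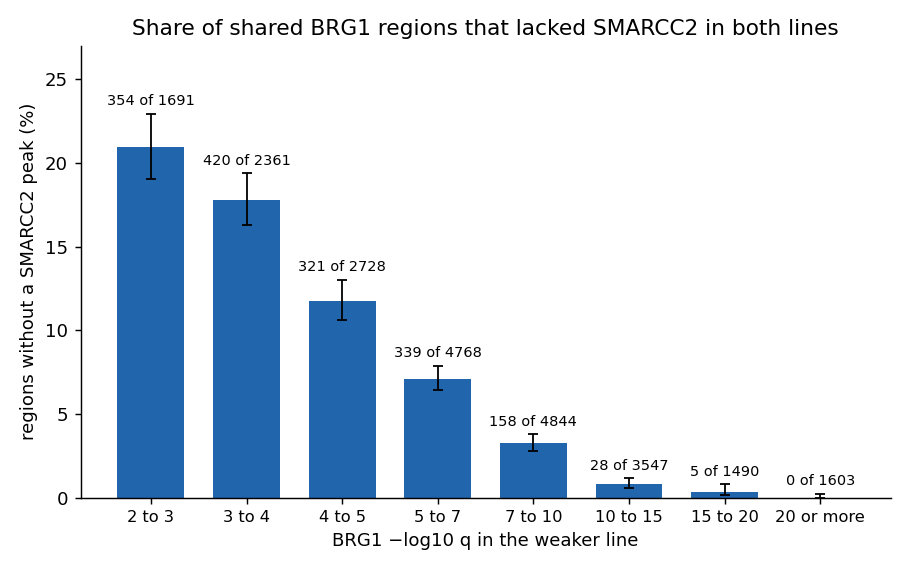
Share of BRG1 regions of both lines that held no SMARCC2 peak (y axis, percent, bars) by the BRG1 −log10 q-value of the weaker line (x axis), with Wilson 95% intervals and counts above the bars. The share falls from 20.9% in the lowest bin to 0 of 1603 regions in the highest.

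Regions of like LNCaP strength differed in MR49F by whether MR49F had a SMARCC2 peak. Where the LNCaP BRG1 −log10 q-value was 4 to 6, the regions without SMARCC2 held a median of 20 MR49F BRG1 tags (quartiles 16 to 24, n = 526). Regions with SMARCC2 in LNCaP alone also held 20 (17 to 24, n = 191). With SMARCC2 in MR49F alone the median was 27 (22 to 35), and with SMARCC2 in both lines it was 30 (24 to 39). Between 12 and 20 the 4 medians were 23.5, 24, 33.5 and 39 in the same order. In all 5 bins of LNCaP strength the classes without an MR49F SMARCC2 peak lay within 1 tag of each other and at least 7 tags below the other classes. These values compare regions of 1 library and have no replicate check. The classes rest on the MR49F SMARCC2 threshold, which weak MR49F sites reach less often, and how much of the gap comes from it was not tested.

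**Figure D3:**
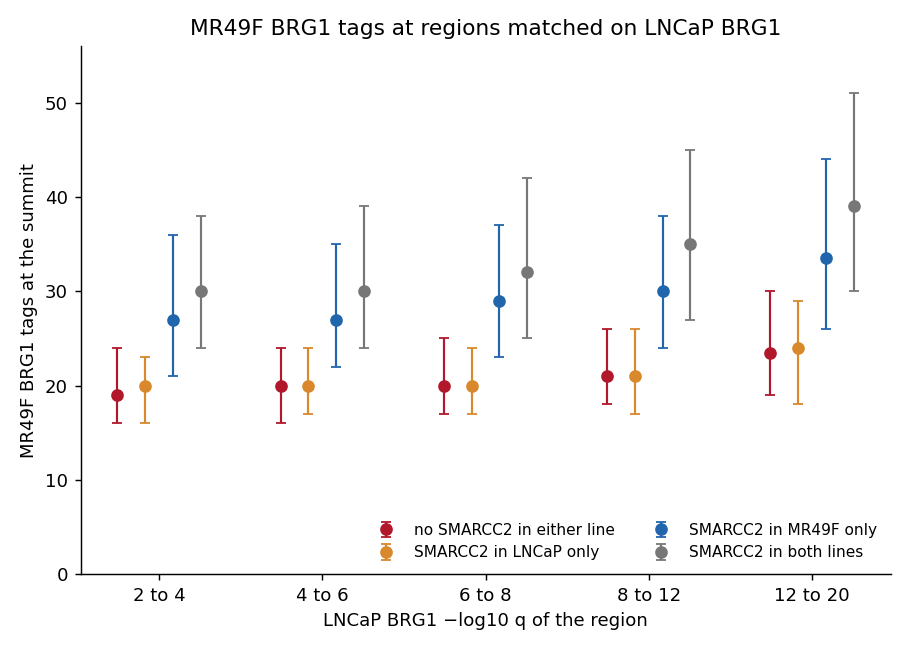
MR49F BRG1 tags at the summit (y axis, median with quartiles) in bins of LNCaP BRG1 −log10 q-value (x axis) for the 4 classes of shared BRG1 regions by where SMARCC2 was called. Regions with no SMARCC2 peak in either line hold medians of 19 to 23.5 tags, next to those with SMARCC2 in LNCaP alone and below the other classes.

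The strongest region lay at chr9:129610225-129611795 within NTMT1, which encodes a methyltransferase for protein N-termini. It held 54 LNCaP and 48 MR49F tags, with −log10 q-values of 19.1 and 19.96, and the nearest SMARCC2 peak was 14.6 kb away. Its local background was 2.80 and 2.87 times that of an unenriched site, higher than the medians of 1.77 and 1.74 over all 1625 regions. The next, at chr20:49978997-49979485, lay 3.74 kb from SNAI1, a repressor of epithelial genes, with 39 and 42 tags. A region 33.0 kb from PAX7, a transcription factor gene of muscle progenitors, held 36 and 31 tags. A region inside IGDCC4 and 7.26 kb from the start of IGDCC3, both genes of immunoglobulin-type membrane proteins, held 31 and 28.

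A region 51.0 kb from SASH1, an adaptor protein gene, held 30 LNCaP and 33 MR49F tags. At JRK, which encodes a nuclear DNA-binding protein, a region 0.089 kb from the assigned gene end held 49 and 38 tags over local backgrounds of 2.65 and 2.41 times the unenriched level. A region inside HEMK2, a methyltransferase gene, had the highest LNCaP −log10 q-value of all 1625 regions, 21.7, against 14.9 in MR49F. The others of the 10 strongest lay 24.3 kb from FMNL1, a formin gene, 34.6 kb from JAM3, a junctional adhesion molecule gene, and at chr12:91381881-91382846 with no assigned gene within 100 kb. Of these 10 regions 1 lay at a gene end. The nearest SMARCC2 peak was between 0.885 kb and 42.0 kb away.

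At the other end, the regions just inside the threshold were a region in RAB8B at chr15:63210425-63211146, with −log10 q-values of 2.01 in LNCaP and 6.76 in MR49F, and 2 regions on chromosomes 12 and 6 with 2.01 in LNCaP and 7.08 and 6.58 in MR49F. Just outside the rule lay a region in EFHB at chr3:19888543-19890005, whose only SMARCC2 peak had a −log10 q-value of 2.02 and 19 tags in LNCaP. A region in PRKCH at chr14:61382778-61384197 and another at chrX:115891766-115893762 each had a single MR49F SMARCC2 peak of 2.02 with 14 tags. In all, 228 shared BRG1 regions were kept out by a single SMARCC2 peak with a −log10 q-value below 3.

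In position, 384 of the 1625 regions (23.6%, 21.6 to 25.8) were centred within 1 kb of the end of any protein-coding gene, 656 (40.4%) lay elsewhere inside one and 585 (36.0%, 33.7 to 38.4) between genes. Regions with all 4 peaks had 23.8% at gene ends and 28.0% (27.3 to 28.7) between genes. Gene-end shares change with strength, so the other classes were also weighted to the strength of the regions without SMARCC2. So weighted, regions with all 4 peaks had 28.6% at gene ends and 24.6% between genes, and those with SMARCC2 in MR49F alone had 28.0% and 28.9%. Those with SMARCC2 in LNCaP alone had 20.3% and 33.0%, a lower gene-end share than the regions without SMARCC2. In each of the 5 bins from 2 to 10 the gene-end share without SMARCC2 was below that with all 4 peaks, for example 19.6% (15.7 to 24.3) against 28.1% (25.6 to 30.7) from 4 to 5. The 2 intervals were apart in that bin and overlapped in the other 4. Regions with BRG1 in a single line and no SMARCC2 were at gene ends less often, at 9.57% (LNCaP) and 17.8% (MR49F). With a limit of 500 bp the share at gene ends was 14.8%. Applying the rule to the 10000 strongest peaks of each list gave 396 regions with 37.6% at gene ends, an almost wholly different set of which 4 overlapped the 1625.

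**Figure D4:**
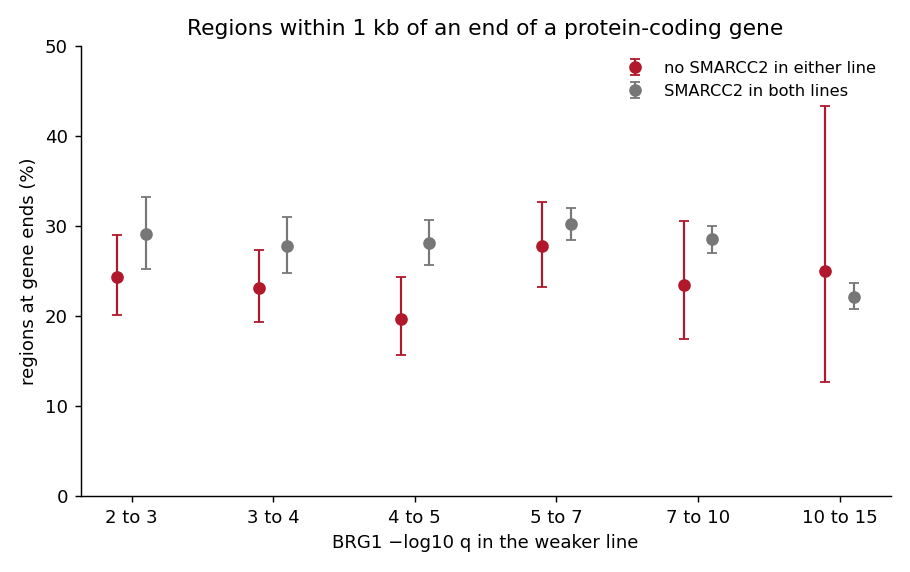
Share of regions centred within 1 kb of any protein-coding gene end (y axis, percent, with Wilson 95% intervals) by the BRG1 −log10 q-value of the weaker line (x axis), for regions without SMARCC2 in red and with SMARCC2 in both lines in grey. From 2 to 10 the red points lie below the grey, and from 10 to 15 the red point rests on 28 regions.

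Of the gene-end regions outside chromosome 8, 272 of 374 (72.7%, 68.0 to 77.0) were within 1 kb of an annotated start, against 79.0% (77.5 to 80.3) with all 4 peaks. More than 1 gene end lay within 1 kb at 68 of the 384 regions (17.7%, 14.2 to 21.8), as at CPTP and INTS11, against 13.5% (12.4 to 14.6). For each of the 190 regions over a promoter start, the window with the lowest coordinate was used. From its start the LNCaP summit lay a median of 120.5 bp downstream (quartiles −187 to 291) and the MR49F summit 118 bp downstream (−210 to 298). Both lines thus had most summits, 115 and 112 of 190, on the downstream side of the start used. From the CPTP start the offsets were 276 and 400 bp, but from INTS11, on the other strand, they were −418 and −542 bp. Offsets were not computed for regions with all 4 peaks.

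Within a region the BRG1 summits of the lines lay a median of 137 bp apart (quartiles 55 to 287). They were within 200 bp at 62.6% (60.2 to 64.9) of the regions and within 50 bp at 23.1% (21.2 to 25.3). At regions with all 4 peaks the median was 88 bp, but at the strength of the regions without SMARCC2 58.5% of them were within 200 bp and 22.8% within 50 bp. The interval of the 50 bp share held the weighted value, and that of the 200 bp share lay above it. The regions were narrower, 870 bp against a weighted 1443 bp.

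SMARCC2 was called near many of the regions though not on them. The nearest SMARCC2 peak of either line lay a median of 9.23 kb away (quartiles 2.47 to 23.6). It was within 0.2 kb of 22 regions, within 1 kb of 239 (14.7%, 13.1 to 16.5) and within 10 kb of 848 (52.2%, 49.8 to 54.6). LNCaP SMARCC2 was within 10 kb of 30.6% and MR49F SMARCC2, the longer list, of 49.0%. No SMARCC2 peak was within 100 kb of 30 regions. Regions with BRG1 in a single line and no SMARCC2 gave similar shares within 10 kb, 50.7% (49.5 to 51.9) for LNCaP and 55.4% (54.1 to 56.7) for MR49F. Another region of the same kind lay within 10 kb of 102 of the 1625 regions and within 100 kb of 460. In the different set of 396 regions from the 10000 strongest peaks of each list, 23.2% had SMARCC2 within 10 kb.

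The regions were spread thinly over genes. Within 100 kb, 1419 were assigned to 1315 of 19974 protein-coding genes (6.58%), by the nearest start or, where the promoter table had none, the nearer gene end. Of these genes 1229 had 1 region, 70 had 2, 14 had 3 and 2 had 4. PRKACB, which encodes a catalytic subunit of protein kinase A, had 4 regions, all inside the gene. They held 24, 26, 26 and 24 LNCaP tags and 20, 25, 16 and 20 MR49F tags, with SMARCC2 peaks between 1.65 and 3.80 kb away. PRKACB had 10 shared BRG1 regions in all, and 4 of them had all 4 peaks. NEDD4L, a ubiquitin ligase gene, also had 4, among 31 shared BRG1 regions of which 19 had all 4 peaks. Its regions without SMARCC2 lay 0.119 to 0.623 kb from a SMARCC2 peak, with 18 to 25 tags in LNCaP and 16 to 20 in MR49F.

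GNAI2, the gene of an inhibitory G protein alpha subunit, stood apart in its lists. It had 3 shared BRG1 regions, none with SMARCC2, and 4 BRG1 peaks in each line beside 0 SMARCC2 peaks in either. The region at its end, chr3:50225975-50228377, held 31 LNCaP and 35 MR49F tags, and the others held 32 and 21, and 27 and 27. The nearest SMARCC2 peak was between 23.05 and 31.9 kb away. TSPEAR also had 3 of 3 shared regions without SMARCC2, but 2 LNCaP SMARCC2 peaks were assigned to it. CROCC, which encodes the ciliary rootlet protein rootletin, had 3 of 4, with 26 to 32 LNCaP and 27 to 42 MR49F tags and SMARCC2 7.11 to 24.8 kb away. By the rule every region of GNAI2, TSPEAR and CROCC was called in both lines. Their −log10 q-values ran from 2.48, at TSPEAR in MR49F with 13 tags, to 13.3.

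The remaining genes with 3 regions among the 10 with the most carried SMARCC2 at other sites. FAM13A had 11 shared BRG1 regions, 6 of them with all 4 peaks. PPFIA2, a liprin gene, had 23 and 13, FBXL17, an F-box protein gene, 14 and 8, PACSIN2, an endocytosis gene, 11 and 5, and DSP, which encodes desmoplakin of the desmosome, 6 and 3. The DSP regions lay inside the gene, 0.472 to 2.62 kb from a SMARCC2 peak, with 30, 26 and 18 LNCaP and 16, 21 and 14 MR49F tags. Assigned within 10 kb only, PPFIA2 and FBXL17 had 0 regions, CROCC, FAM13A and TSPEAR had 1, and NEDD4L, PACSIN2 and DSP had 2. PRKACB kept 4 and GNAI2 kept 3. When each list was cut at a −log10 q-value of 5, NEDD4L and DSP had 0 and TSPEAR had 1.

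Gene lists were read against the 7.06% of all shared BRG1 regions that lacked SMARCC2. Genes of RNA polymerase II and its general factors had 6 of 31 shared BRG1 regions without SMARCC2 (19.4%, 9.19 to 36.3), at 5 genes. All 6 were within 1 kb of the end of any protein-coding gene, but the region assigned to TAF12 lay 5.21 kb from the position used for TAF12. GTF2F1, a TFIIF subunit, had 2, with 23 and 26 LNCaP and 20 and 27 MR49F tags and SMARCC2 30.2 and 31.3 kb away. POLR2L, a polymerase subunit, had 1 with 27 and 29 tags, 0.493 kb from a SMARCC2 peak. Spliceosome genes had 6 of 27 (22.2%, 10.6 to 40.8), of which 3 were at gene ends. A region in SF3B3, a subunit of the splicing factor SF3B, held 26 LNCaP and 23 MR49F tags. A region 40.1 kb from SRSF5, a splicing regulator, held 25 and 29. The lower bounds of both lists lay above 7.06%, but the lists are short and were chosen with results of these data known. In all, 20 lists were read. The lists were not matched on BRG1 strength, although the share over all shared regions was 20.9% from 2 to 3 and 7.11% from 5 to 7. How much of the 2 shares comes from weak sites was not tested. Cell cycle and MYC genes had 4 of 33 (12.1%, 4.82 to 27.3), among them a region at an end of CDK6, a cell cycle kinase gene, with 25 LNCaP and 18 MR49F tags.

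The lists of prostate genes could not be set apart from all shared BRG1 regions, since the intervals of their shares without SMARCC2 held 7.06%. Of 25 androgen response genes 24 had a shared BRG1 region, and 5 of their 109 regions lacked SMARCC2 (4.59%, 1.98 to 10.3), while 78 of the 109 had all 4 peaks, as did 14863 of all 23032. SLC45A3, which encodes the prostate membrane protein prostein, had a region inside the gene with 36 LNCaP and 43 MR49F tags, 1.30 kb from SMARCC2. A region 58.5 kb from TMPRSS2, an androgen-regulated protease gene, held 24 and 21 tags at 0.370 kb from SMARCC2. The other 3 belonged to the kallikreins KLK2, KLK3, which encodes prostate-specific antigen, and KLK4, at 6.65 to 17.9 kb from their starts. They held 22, 27 and 28 LNCaP tags and 14, 23 and 17 MR49F tags, with SMARCC2 1.18 to 2.47 kb away. None of these 5 regions was at a gene end. Luminal prostate and pioneer factor genes had 1 of 70 (1.43%, 0.253 to 7.66). It lay 4.60 kb from GATA2, a pioneer factor gene, with 42 and 29 tags.

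Genes of the remodelling complexes themselves were among the lists. Canonical BAF and shared subunit genes had 2 of 35 regions without SMARCC2 (5.71%, 1.58 to 18.6). The region at the start of SMARCD3, a BAF60 subunit, held 33 LNCaP and 18 MR49F tags with SMARCC2 24.4 kb away, and the other lay 28.3 kb from ACTB, the gene of beta-actin, with 31 and 20 tags. PBAF genes had 0 of 3, non-canonical BAF genes 0 of 10, CTCF and cohesin genes 0 of 12 and proteasome genes 0 of 20, which allow shares of up to 56.1%, 27.8%, 24.2% and 16.1%. Ribosomal protein genes had 4 of 63 (6.35%, 2.50 to 15.2). At RPSA, a small subunit protein gene, the region held 31 and 38 tags and ended 0.013 kb from a SMARCC2 peak, and at RPL19 a region held 24 and 16.

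Complex I genes had 2 of 17, both 35.3 to 37.2 kb from NDUFB4. AP-1 genes had 1 of 9, 32.3 kb from JUN with 33 LNCaP and 28 MR49F tags, and ETS genes 1 of 34, 37.5 kb from EHF with 29 and 31. Wnt genes had 3 of 47, including DKK1, a secreted inhibitor, whose region inside the neighbouring PRKG1 held 22 and 25 tags, and RNF43, a ubiquitin ligase for Wnt receptors, with 24 and 19. Corepressor genes had 1 of 36, in TBL1X with 25 and 18 tags. Lipid synthesis genes had 1 of 48, near INSIG1, and neuroendocrine genes 1 of 11, near NCAM1. Of the lists for other cell types, leukocyte genes had 0 of 4 regions and fibroblast, hepatocyte and muscle genes 1 of 8, in PDGFRA, 46.0 kb from SMARCC2. These shares rest on too few regions to be set apart from 7.06%, since each interval held it.

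By chromosome the share without SMARCC2 was highest on chromosome 19, which was singled out after the values were seen. There 116 of 622 shared BRG1 regions lacked SMARCC2, or 18.7% (15.8 to 21.9), against 6.73% (6.41 to 7.07) on the other chromosomes together. Chromosome 22 had 12.4% (9.57 to 15.9), 21 had 11.0%, 16 had 9.82% and 17 had 9.70%, and the lowest were 18 with 4.47% (2.88 to 6.88) and 5 with 4.98%. Among regions below 7 in the weaker line the share on chromosome 19 was 26.6% (22.4 to 31.3) against 11.9% (11.4 to 12.6). It was higher at gene ends (20.6%, 16.2 to 25.8, against 6.06%) and away from them (17.2%, 13.6 to 21.4, against 6.95%). In each line taken alone, BRG1 regions without SMARCC2 of that line made up 61.6% on chromosome 19 against 43.1% elsewhere in LNCaP, and 35.0% against 19.6% in MR49F. The reverse was lower: SMARCC2 regions without BRG1 were 14.0% against 19.8% in LNCaP and 13.8% against 24.9% in MR49F.

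**Figure D5:**
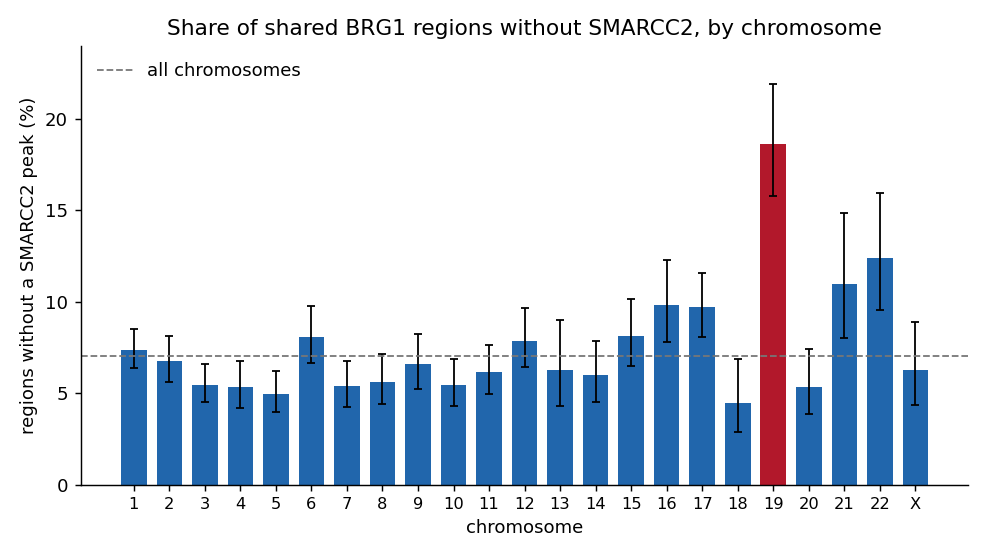
Share of BRG1 regions of both lines that held no SMARCC2 peak (y axis, percent, bars with Wilson 95% intervals) by chromosome (x axis), with chromosome 19 in red and the 7.06% over all chromosomes as a dashed line. Chromosome 19 reaches 18.7%, above the intervals of all other chromosomes.

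The 116 regions on chromosome 19 were like those elsewhere without SMARCC2 in strength, with medians of 26 LNCaP and 19 MR49F tags against 24 and 20. Regions with all 4 peaks held 33 LNCaP and 29 MR49F tags there, against 33 and 36 elsewhere. Of the shared BRG1 regions, 372 of 622 there were below 7 in the weaker line, against 11176 of 22410 elsewhere. At gene ends lay 55 of the 116, or 47.4%, against 21.8% elsewhere, on a chromosome where 38.0% of regions with all 4 peaks were at gene ends against 23.5%. Local background over these regions was 1.86 times the unenriched level in LNCaP, against 1.66 elsewhere, and 1.68 in MR49F, against 1.74. Genes of the ZNF zinc finger family, many of which sit in clusters on this chromosome, had 14 of 68 regions without SMARCC2 (20.6%, 12.7 to 31.6), an interval that held the 18.4% (15.4 to 21.9) of all other chromosome 19 regions. On the other chromosomes ZNF genes had 24 of 206 (11.7%, 7.96 to 16.7), an interval above the 6.73% of all regions there. Strength was not matched in these ZNF shares. At ZNF460 the region held 38 LNCaP and 27 MR49F tags, and at ZNF440 34 and 27, with SMARCC2 38.3 and 45.5 kb away. Of the 14 ZNF regions 10 were at gene ends.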

How the data were processed

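BRG1 and SMARCC2 ChIP-seq peaks of LNCaP and MR49F were taken as the authors deposited them, 1 list per library, with 1 library per line and antibody. BWA 0.7.10, MACS2 2.1.0, SAMtools and the build hg38 are listed in the submitters' processing notes, without roles. The use of inputs, duplicates and filters is not given in the sources used here. For each peak the authors deposited a fold enrichment, a −log10 p-value and a −log10 q-value, a display score, which was not used, and a summit offset.

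Regions, classes, distances and Wilson 95% intervals were computed with Python 3.11.15, NumPy 2.4.6, pandas 2.3.3 and SciPy 1.17.1, and plots drawn with matplotlib 3.10.9. A region's value in a list is that of its strongest peak. Tags at summits were solved from the deposited fold and p-value as whole numbers under a Poisson background, with a scale of 0.971 for LNCaP BRG1 and 0.920 for LNCaP SMARCC2. Whole tags matched the p-value within 0.005 (log10) for at least 99.8% of the peaks of each list. Read totals per library are unknown. Region joining and tag recovery were tested on simulated data. Genes and promoter sequences are from RefSeq on GRCh38.p14. All 432 entries of the 20 gene lists matched a gene.

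Named are the 10 genes with the most regions, the 10 strongest regions, up to 2 genes per list by number of regions and strength, and the promoters described. Further genes of a list, the ZNF genes and the motif genes were named after their values were seen. The regions and lists were chosen with earlier results of these data known. No test was made, since no group had a replicate. Alternatives covered peak strength, overlap, summits, distance limits and gene assignment. No genome sequence was used, so motifs outside promoters were not searched, and chromosome 8 promoters were not used here.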

Additional observations from a re-analysis of the deposited data

How the results depend on the processing

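When only BRG1 peaks were held to a −log10 q-value of at least 5, 530 regions were left, or 3.26% of the shared BRG1 regions, with 26.0% at gene ends, summits 107 bp apart and 49.1% with SMARCC2 within 10 kb. When all lists were held to it, 29.9% were at gene ends and 47.7% had SMARCC2 within 10 kb. By construction, this adds regions whose SMARCC2 peaks fell below 5, and 530 of its 1129 regions overlapped the original ones. Cutting each list to its 10000 strongest peaks gave a largely different set of 396 regions, 9.11%, with 37.6% at gene ends and 23.2% with SMARCC2 within 10 kb, and 4 of them overlapped the original ones. Pairing BRG1 peaks at 50% reciprocal overlap gave 996 pairs, 6.64%, with summits 119 bp apart. Pairing summits within 200 bp gave 12.97%, with 30.7% at gene ends, summits 70 bp apart and 75.2% with SMARCC2 within 10 kb. By construction its summit distance cannot exceed 200 bp. A pair was dropped only for a SMARCC2 summit within 200 bp, so pairs overlapping a SMARCC2 peak could stay. Of its 2072 pairs 1022 overlapped the original regions. Asking for no SMARCC2 peak within 1 kb gave 6.02%, with 20.3% at gene ends and 43.9% with SMARCC2 within 10 kb. Gene ends within 500 bp or 2500 bp gave 14.8% and 30.3%, annotated start sites gave 20.4%, and SMARCC2 within 50 kb 91.9%. Leaving out chromosome 19, an alternative chosen after the data were seen, left 1509 regions and kept every share and the summit distance inside its interval. Among the 10 genes with the most regions, counts stayed within 1.5 times for 4 with assignment within 10 kb, for 10 with gene spans extended by 10 kb and for 7 when all lists were held to a −log10 q-value of 5.

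No paired analysis was possible because each line and antibody had 1 library, and leaving out a replicate would leave none. A threshold on q-values limits all classes: absence of a peak is not absence of protein, and weak sites are missed more often.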
